A study of Drosophila melanogaster with 2 samples.

Results

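The genes for the subunits of the proteasome of Drosophila melanogaster were examined for regions occupied by Ash1, a trithorax group protein that methylates histone H3. The members were all protein-coding genes whose symbol begins with Prosalpha or Prosbeta, or with Rpn or Rpt followed by a digit. The rule chose them by name and used no measured value. It gave 48 of the 13945 protein-coding genes on the 6 chromosome arms examined. They comprise 32 genes that give 1 gene per subunit, for the subunits that the rule names. The other 16 are paralogues, whose symbols carry an R or a T.

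The data came from chromatin immunoprecipitation followed by sequencing (ChIP-seq) of whole embryos from a stable transgenic line in which GFP is joined to the C terminus of Ash1. Male and female embryos were pooled at an age of 0 to 24 h, per the labels, and chromatin was sonicated to fragments of 200 to 800 bp. The series holds 2 samples, biological replicates 2 and 4 of 1 group, and no untagged strain or second condition was analysed here. The authors deposited 30000 candidate regions for each replicate, 30000 for both pooled, and a list of 1567 reproducible regions.

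A free-text label calls both samples input controls, whereas their antibody, assay name and deposited calls describe immunoprecipitated material, and they were treated as the latter. The labels do not say whether the tagged gene was added to the untagged one or replaced it. Whole embryos mix all cell types and stages of embryogenesis, so weak occupancy in all cells and strong occupancy in few cells cannot be told apart. The lists hold no expression values, and the labelled tissue was not tested against marker genes.

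The proteasome degrades proteins that carry ubiquitin chains, and every cell needs it. Its 20S core is a barrel of alpha rings, which gate the entrance, around beta rings, which hold the proteolytic sites. The 19S regulatory particle caps the core. Its base contains the Rpt ATPases, which unfold substrates, and ubiquitin receptors, and its lid contains Rpn11, which removes the ubiquitin chain.

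None of the proteasome subunit genes was bound. A gene was called bound when a region of the authors' reproducible list had its summit within 500 bp of any annotated transcription start site (TSS) of the gene. This held for 0 of 48 subunit genes and for 7.49% of all protein-coding genes. Candidates below that limit were recorded at many of the same promoters. A candidate region, which the deposited pooled list gives as peak or background without distinction, had its summit within 500 bp of a TSS at 21 of the 48 genes, or 43.8%, beside 45.0% of all protein-coding genes. They lay at 21 of the 32 genes that give 1 gene per subunit, or 65.6%, and at 0 of the 16 paralogues.

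Regions were ranked by the authors' signal value, with rank 1 the strongest, since its scale is not stated. The reproducible regions were exactly the 1567 strongest pooled candidates, with a lowest signal of 92.527, and the next candidate had 92.519. The strongest subunit gene, Rpt5, stood at rank 2180 with a signal of 80.673, and the lowest bound signal was 1.147 times as high. Among all protein-coding genes with a candidate at a TSS, 1345, or 21.5%, had a stronger one than Rpt5, and 16.7% were bound.

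The 21 genes spread over most of the list below that limit, from rank 2180 to rank 26422. Their median rank was 8161, with quartiles at 4193 and 10678. All protein-coding genes with a candidate had a median rank of 7316 and quartiles at 2609 and 15566. By intervals of rank, 8 of the 21 subunit genes, or 38.1%, lay below the limit but among the 5000 strongest regions, where 23.5% of the protein-coding genes with a candidate lay. A further 6 subunit genes, or 28.6%, fell within the next 5000 ranks, beside 20%. The remaining 4 and 3 subunit genes, or 19% and 14.3%, fell in the 10000 ranks after that and in the last 10000, beside 23.8% and 16.2%. Of the protein-coding genes with a candidate 16.7% were bound, and of the subunit genes 0. The intervals below the limit therefore together necessarily hold a larger share of the subunit genes. These shares describe the lists, and no test of a difference between them was made.

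**Figure D1:**
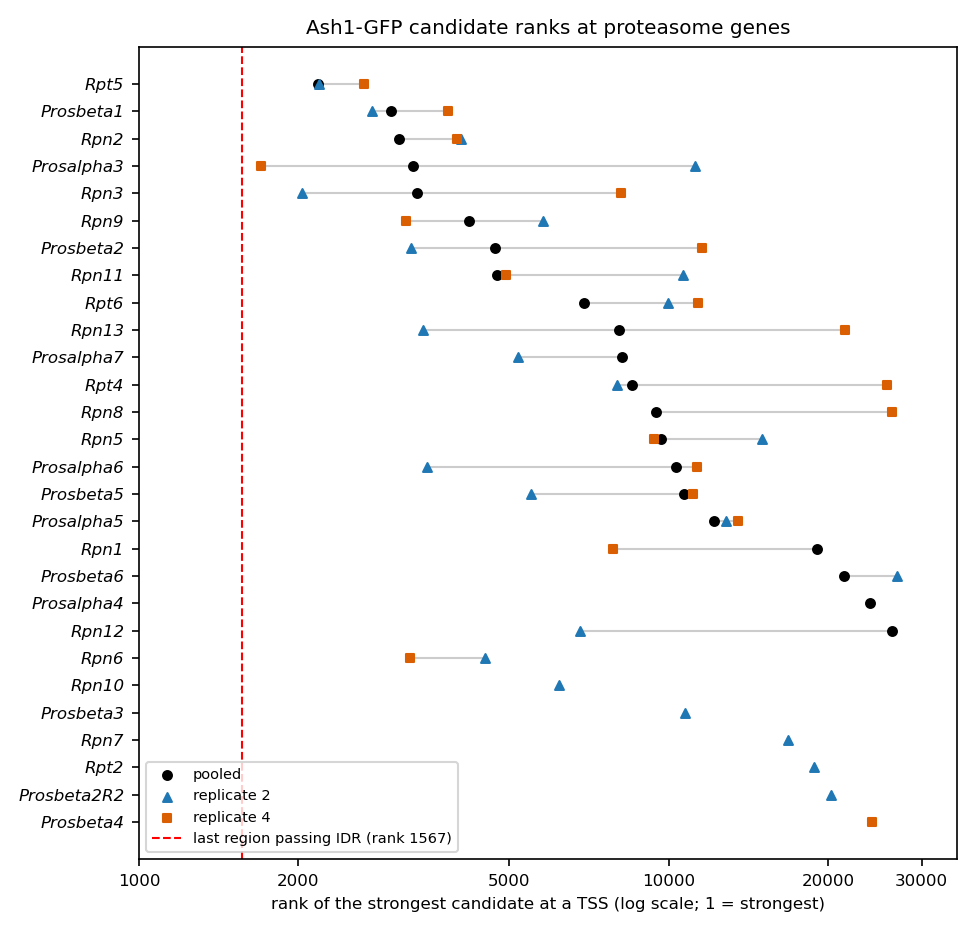
Rank of the strongest candidate at a TSS for each of the 28 subunit genes with a candidate in any of the 3 lists. Ranks in the pooled list and in each replicate are on a log axis, with rank 1 the strongest and the limit of the 1567 bound regions marked. All 21 genes with a pooled candidate lie on the weak side of that limit, from Rpt5 at rank 2180 to Rpn12 at rank 26422.

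In the 19S base, 6 of 10 genes had a candidate. Rpt5 (FBgn0028684, chr3R:23752876-23754623, plus strand) encodes an ATPase of the base ring. Its candidate, at chr3R:23752708-23753043, had its summit on the first base of the gene, in the annotated 5' UTR. It stood at rank 2180 in the pooled list, at rank 2192 in replicate 2 and at rank 2665 in replicate 4. Rpn2 (FBgn0028692, chr3R:29153524-29157255, plus strand) is a scaffold subunit of the base. Its candidate, with a signal of 69.594, stood at rank 3097, with rank 4063 in replicate 2 and rank 3980 in replicate 4. That summit lay 87 bp upstream of the TSS, in intergenic sequence.

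The other base genes were weaker. Rpt6, an ATPase of the ring, had a candidate of signal 47.805 at rank 6919, with rank 9951 in replicate 2 and 11344 in replicate 4. Its summit lay 8 bp upstream of the TSS, within an intron of CG1801. The candidate of Rpn13, a ubiquitin receptor, had a signal of 44.479 at rank 8065, and its replicates stood far apart, at rank 3430 in replicate 2 and 21506 in replicate 4. Rpt4, another ATPase, had a candidate of signal 43.348 at rank 8510, with rank 7999 in replicate 2 and 25831 in replicate 4. Rpn1, the other scaffold subunit, was weak in the pooled list, at rank 19035, with no candidate in replicate 2. In replicate 4 its strongest region, at rank 7855, had the same summit as its second pooled candidate, at rank 19577. Of the remaining base genes, the ATPase genes Rpt1 and Rpt3 had no candidate at a TSS in any list, while Rpt2 and the ubiquitin receptor gene Rpn10 had one in replicate 2 alone, at ranks 18782 and 6209.

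Of the 8 genes of the 19S lid that the rule names, 6 had a pooled candidate. Rpn3 (FBgn0261396, chr2L:19051790-19053681, plus strand), a structural subunit of the lid, had a signal of 67.073 and stood at rank 3344. It was stronger in replicate 2, at rank 2033, than in replicate 4, at rank 8110. Its summit lay 36 bp downstream of the TSS, in the 5' UTR. Rpn9 (FBgn0028691, chr3R:23731375-23733462, minus strand), also a structural subunit, had a candidate of signal 60.239 at rank 4193, with its summit 169 bp downstream of the TSS. The strongest candidate at its TSS was at rank 3193 in replicate 4 and at rank 5790 in replicate 2. In replicate 2 it was a different region, 416 bp upstream, and the pooled region had a match at rank 6519. Rpn11 (FBgn0028694, chr2L:5058404-5059790, minus strand), the deubiquitinating enzyme of the lid, had a signal of 57.110 at rank 4735, with rank 10633 in replicate 2 and 4926 in replicate 4. Its summit was intergenic, 156 bp upstream of the TSS. The candidates of Rpn8, Rpn5 and Rpn12 had pooled ranks of 9459, 9689 and 26422. Those of Rpn8 and Rpn12 were each found in only 1 replicate. The pooled region of Rpn5 had a match within 100 bp only in replicate 2. In replicate 4 the strongest candidate of Rpn5 lay 380 bp upstream, at rank 9397. It matched the second pooled candidate of Rpn5, of rank 16702.

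Rpn6, a lid subunit that braces the lid against the core, was treated differently by the lists. It had a candidate at rank 4496 in replicate 2 and at rank 3248 in replicate 4, with summits 64 bp apart, yet none in the pooled list. The nearest pooled summit lay 10742 bp away. Rpn7, the remaining lid gene, had a candidate in replicate 2 alone, at rank 16769.

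Of the beta genes of the core, 4 of 7 had a pooled candidate. Prosbeta1 (FBgn0010590, chr2R:16013805-16014787, minus strand) and Prosbeta2 (FBgn0023174, chr3L:14999951-15001319, plus strand) encode proteolytic subunits. The candidate of Prosbeta1 had a signal of 70.726 at rank 2990, with rank 2757 in replicate 2 and 3831 in replicate 4. That of Prosbeta2 had a signal of 57.377 at rank 4690, with rank 3265 in replicate 2 and 11577 in replicate 4. The first was at similar ranks in both replicates and the second was weaker in replicate 4. Prosbeta5, the third proteolytic subunit, was weaker, at rank 10678, with rank 5502 in replicate 2 and 11135 in replicate 4. Prosbeta6, a non-catalytic subunit, stood at rank 21447, with its summit 420 bp inside the gene, in a coding exon. Of the other non-catalytic subunits, Prosbeta3 had a candidate in replicate 2 alone, at rank 10717, and Prosbeta4 in replicate 4 alone, at rank 24181. Prosbeta7 had none in any list.

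Of the alpha genes of the core, 5 of 7 had a pooled candidate. Prosalpha3 (FBgn0261394, chr2R:20994900-20996118, plus strand) had the strongest, with a signal of 67.583 at rank 3286 and a summit 16 bp upstream of the TSS. It was the highest-ranking subunit gene of replicate 4, at rank 1698, and stood at rank 11222 in replicate 2, so its replicates differed widely. Prosalpha7 had a signal of 44.247 at rank 8161, with rank 5197 in replicate 2 and no candidate in replicate 4. Prosalpha6 and Prosalpha5 stood at ranks 10306 and 12164. Each had a candidate at a TSS in both replicates, but the pooled region itself had a match within 100 bp only in replicate 2 for Prosalpha6 and only in replicate 4 for Prosalpha5. The candidate of Prosalpha6 in replicate 4 was another region, 439 bp from the TSS. Prosalpha4 stood at rank 23948 in the pooled list and had no candidate in either replicate. Prosalpha1 and Prosalpha2 had no candidate at a TSS in any list, although a pooled candidate of rank 4758 lay in Prosalpha2, 587 bp from its TSS and thus just past the limit of distance.

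Paralogues of proteasome subunits are known in Drosophila for expression in the male germ line, where several replace the general subunit. None of the 16 had a pooled candidate at a TSS. In the replicates alone, Prosbeta2R2 had one in replicate 2, at rank 20214, and the other 15 had none in any of the 3 candidate lists. Beside them, 42.4% of all protein-coding genes had no candidate in any of these lists, and so did 5 of the 32 genes that give 1 gene per subunit.

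The replicates were also taken alone. In replicate 2, 24 of the 48 genes had a candidate, or 50%, beside 45.5% of all protein-coding genes, with a median rank of 6498. In replicate 4, 19 had one, or 39.6%, beside 44.1%, with a median rank of 9397. Among the 1567 strongest candidates of a replicate there were 0 subunit genes in either, beside 7.24% of all protein-coding genes in replicate 2 and 7.29% in replicate 4. A candidate was present in both replicates for 16 genes, or 33.3%, beside 33.7% of all protein-coding genes. Of the 15 genes with a TSS candidate in all 3 lists, 10 ranked higher in replicate 2 and 5 in replicate 4. A single control alignment served both replicates, so their lists are not fully independent.

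By definition the pooled candidates had summits within 500 bp of a TSS. Their positions within that limit were near those over all protein-coding genes with a candidate, and no difference was tested. Of the 21 summits, 15 lay upstream of the TSS, or 71.4%, beside 62.3% of protein-coding genes with a candidate. The median distance was 74 bp, beside 106 bp, and 12 summits lay within 100 bp, or 57.1%, beside 48.4%. Of these summits, 12 were intergenic, 4 in a 5' UTR, 3 in an intron and 2 in a coding exon. Just inside the limit of distance, the second candidate of Rpn9 was 444 bp and that of Prosalpha3 496 bp from the TSS. Just outside it lay candidates of Prosbeta3, at 579 bp, and Prosalpha2.

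Most candidates were shared with another gene. At 14 of the 21 subunit genes, or 66.7%, the summit lay within 500 bp of the TSS of another gene as well, beside 42.0% of protein-coding genes with a candidate. In all 14 the neighbour was a protein-coding gene on the opposite strand. The summit was nearer to the neighbour in 7 of them, so the candidate cannot be assigned to the subunit gene alone. The Rpt5 candidate lay 42 bp from the TSS of RanBP3, which encodes a Ran-binding protein, and Rpt5 remained the nearer gene. The Prosbeta1 candidate was 48 bp from Rrp42, an RNA exosome subunit, against 73 bp from Prosbeta1. For Prosbeta2, the summit lay 263 bp from its own TSS and 22 bp from that of mRpL39, a mitochondrial ribosomal protein gene. The Rpn2 summit lay nearer to Rpn2 than to Slbp, the gene of the histone mRNA stem-loop binding protein, 171 bp away. The same was true of Rpn3 beside l(2)37Bb at 214 bp, of Rpn13 beside CtsL1, a cathepsin gene, at 215 bp, and of Prosalpha7 beside CG1671 at 209 bp. The Rpt4 summit was 32 bp from Rpt4 and 26 bp from mldr. Among the 12 strongest, the candidates of Prosalpha3, Rpn11 and Rpt6 were not shared.

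**Figure D2:**
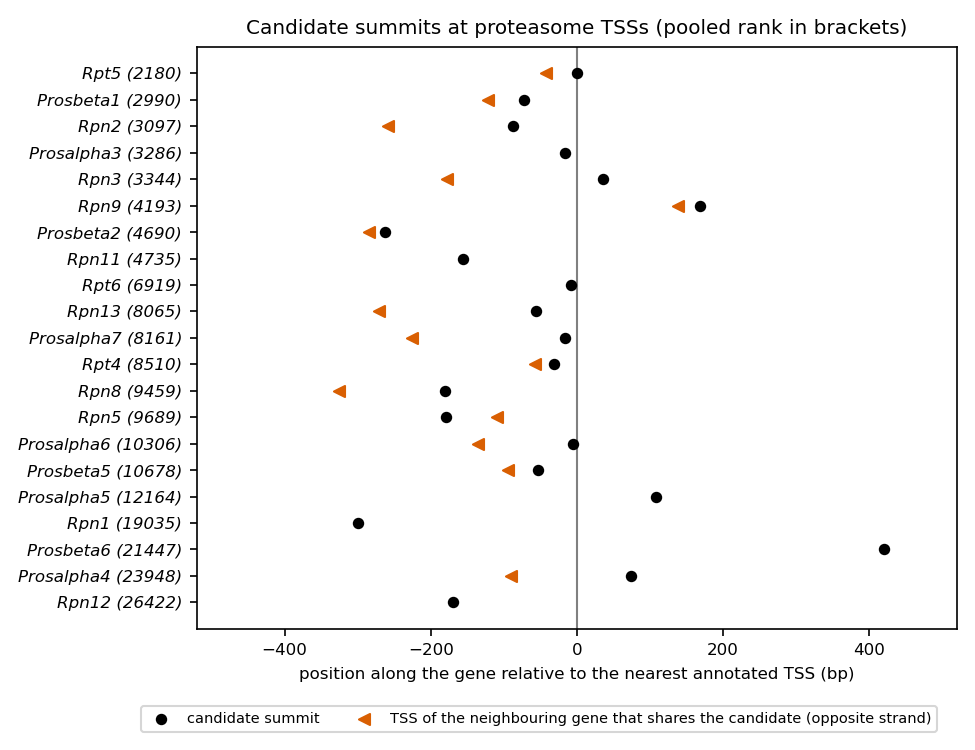
Position of each pooled candidate summit relative to the TSS of the subunit gene, in bp with upstream to the left, with the TSS of any neighbouring gene that shares the candidate. Of the 21 summits 15 lie upstream, and the neighbour's TSS is the nearer one in 7 of the 14 shared candidates.

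A protein-coding gene on the opposite strand, with its TSS at most 500 bp upstream of the outermost TSS, was common among these genes. This held whether or not they had a candidate, for the genes that give 1 gene per subunit. Such a neighbour was present at 12 of the 21 genes with a candidate, or 57.1%, and at 6 of the 11 without one among the genes that give 1 gene per subunit, or 54.5%. It was present at 2 of the 16 paralogues, or 12.5%, beside 26.4% of all protein-coding genes and 37.2% of those with a candidate. The part of the shared promoters in the candidate count was not tested.

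The DNA replication-related element (DRE), bound by the factor DREF and common at promoters of housekeeping genes, was searched as TATCGATA, which reads the same on both strands, from 250 bp upstream to 50 bp downstream of the outermost TSS of each gene. It occurred in 12 of 48 members, or 25%, beside 9.36% of all protein-coding genes. All 12 were among the 32 genes that give 1 gene per subunit, of which they make 37.5%. The DRE was found at 11 of the 21 genes with a pooled candidate, or 52.4%, beside 12.9% of all protein-coding genes with one. Among the other genes that give 1 gene per subunit it was found at 1 of 11, Rpn7, or 9.09%, and it was found at 0 of 16 paralogues. Both are near the 6.45% of all protein-coding genes without a candidate that had one. Bound protein-coding genes had it at 12.7%, close to the share over all genes with a candidate. The split of the members by candidate was added after values were seen. A link between DRE and candidate was not tested.

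The sites are shown because all but 1 of the members with a DRE had a candidate. Each is given 5' to 3' on the strand of the gene, in the RefSeq copy of the dm6 assembly, with the DRE in capitals and 10 bases on either side.
Rpt5, chr3R:23752820-23752847, plus strand: tcgctgtcacTATCGATAagcgccggcg
Rpn3, chr2L:19051583-19051610, plus strand: gttatcggagTATCGATAtcgaaaaggc
Prosbeta2, chr3L:14999931-14999958, plus strand: catgaatataTATCGATAcaatatcgat
Prosalpha6, chr2L:10221325-10221352, plus strand: ccgaatccctTATCGATAcccgatacac
Prosbeta6, chr3L:16610445-16610472, minus strand: tatgtataccTATCGATAacgtttaagc
Rpn12, chr3L:16582802-16582829, plus strand: tgttaaaataTATCGATAttaaagcaca
Rpn7, chr3R:22462034-22462061, minus strand: cggtataattTATCGATAattttggggt
The last of these genes is the one without a pooled candidate.

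The elements began upstream of the TSS in 10 of the 12 genes. That of Rpt5 began 46 bp upstream, that of Prosalpha6 16 bp upstream and that of Rpn3 197 bp upstream. From the centre of the element to the candidate summit the distance ran from 7 to 460 bp, with a median of 139 bp, and was within 100 bp in 5 of 11 genes. The elements of Prosalpha3, Prosalpha5, Prosbeta1, Rpn9 and Rpn13 are counted but not printed.

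Some candidates had shorter matches. The DRE core ATCGAT, which lies inside every DRE and was added after sequences were seen, occurred at 14 of the 21 genes with a candidate, or 66.7%, beside 27.6% of protein-coding genes with one. It occurred at 3 of the 11 genes without a candidate among those that give 1 gene per subunit, or 27.3%, beside 23.3% of all protein-coding genes. Over all 32 genes that give 1 gene per subunit, it occurred at 17, or 53.1%. The difference by candidate was not tested. Rpn2 and Rpt6 carry no full DRE but a pair of cores each close to the start, and both upstream flanks are shown for that reason, with the cores in capitals.
Rpn2, chr3R:29153324-29153523, plus strand: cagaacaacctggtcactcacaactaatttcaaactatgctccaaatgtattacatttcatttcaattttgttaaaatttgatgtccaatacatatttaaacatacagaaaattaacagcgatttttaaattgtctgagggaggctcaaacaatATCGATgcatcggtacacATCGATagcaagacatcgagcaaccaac
Rpt6, chrX:21315852-21316051, plus strand: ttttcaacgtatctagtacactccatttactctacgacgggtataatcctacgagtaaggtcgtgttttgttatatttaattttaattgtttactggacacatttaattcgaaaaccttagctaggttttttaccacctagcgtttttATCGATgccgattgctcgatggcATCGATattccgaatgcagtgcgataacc
Rpt1, which has no candidate in any list, likewise holds a pair of cores and no full DRE. In Rpn2 the cores began 46 and 28 bp upstream of the TSS, and in Rpt6 they began 52 and 29 bp upstream.

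Other promoter motifs were searched in the same window, on both strands. The core of the recognition motif of Pho, the DNA-binding Polycomb group protein, searched as GCCAT, occurred in 39.6% of the members, beside 41.2% of all protein-coding genes. The GAGA motif, searched as GAGAG and bound by GAGA factor, occurred in 18.8%, beside 29.7%, and 6 of the 9 members with it were paralogues. The core of Motif 1, a housekeeping promoter motif, searched as GGTCACAC, occurred in 10.4%, beside 7.7%. The TATA box, searched as TATAAA, occurred in 37.5%, beside 45.8%. An E-box, searched as CAGCTG, occurred in 4.17%, beside 17.7%. The antioxidant response element, to which CncC binds, was searched as TGACNNNGC and occurred in 12.5%, beside 8.63%. The absence of a match says only that these letters are not in the window.

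**Figure D3:**
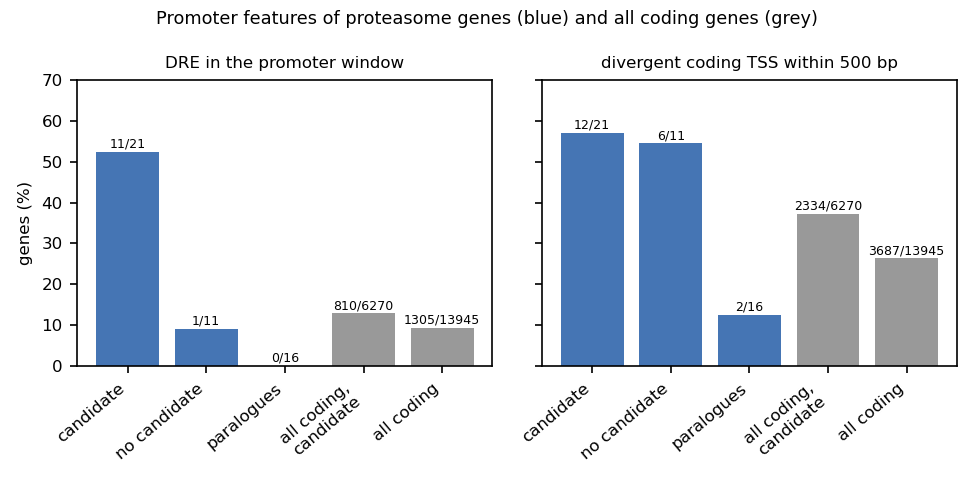
Share of genes, in percent, with a DRE in the promoter window, and share with an opposite-strand protein-coding TSS at most 500 bp upstream. The groups are subunit genes with and without a candidate, paralogues, and all protein-coding genes, also those with a candidate. The DRE is at 52.4% of the subunit genes with a candidate, at 9.09% of the genes without one that give 1 gene per subunit and at 0 of the paralogues.

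Bound regions lay elsewhere near some subunit genes. The nearest bound summit was at a median of 20668 bp from a TSS of the gene, beside 26857 bp over all protein-coding genes. Within 5000 bp there was one at 9 of the 48 genes, or 18.8%, beside 17.9%. Within 2000 bp there was one at 1 gene, Prosbeta6, or 2.08%, beside 11.2% of all protein-coding genes. That region, of rank 1182, lay 1135 bp away at CG4098. The 17.9% and 11.2% over all protein-coding genes include the 7.49% bound within 500 bp, a class that holds 0 members. They are thus not a separate result from the count of bound genes. The bound region near Rpn5, of rank 244, lay 2291 bp away at the TSS of Hpf1. Near Rpt4, a region of rank 598 lay 3228 bp away at Top3beta and wuho. Near Prosbeta2R2, a region of rank 66 lay 3978 bp away, in an intron of cno.

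By chromosome, candidates occurred at 3 of 8 members on 2L, 7 of 13 on 2R, 4 of 7 on 3L, 4 of 14 on 3R and 3 of 6 on X. On these arms the share of all protein-coding genes with a candidate ran from 41.2% to 48.2%, and with so few members per arm nothing is read from the counts. Few members are neighbours. Rpn9 and Rpt5 are separated by 19413 bases on 3R, and both have a candidate. Prosalpha1 and Prosalpha1R are separated by 1734 bases, and neither has one.

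Other genes serve the proteasome without being subunits named by the rule. Of 14 regulators, assembly factors and partners, 8 had a pooled candidate, or 57.1%, beside 45.0% of all protein-coding genes, and 3 were bound, or 21.4%, beside 7.49%. Their median rank was 4832. Uch-L5, a deubiquitinating enzyme that docks on Rpn13, was bound at rank 853, with rank 1201 in replicate 2 and 817 in replicate 4, at a promoter shared with Jarid2. Pomp, the assembly chaperone of the 20S core, was bound at rank 947, with rank 1622 in replicate 2 and 1667 in replicate 4. cnc, which encodes the activator of proteasome genes under stress, was bound at rank 1553, with rank 1117 in replicate 2 and 1008 in replicate 4. TER94, the ATPase that extracts ubiquitinated proteins, was the strongest unbound gene, at rank 1938. The difference between these genes and the subunit genes was not tested.

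Of 24 genes for ubiquitin and its conjugation, 20 had a candidate, or 83.3%, beside 45.0% of all protein-coding genes, and 3 were bound, or 12.5%, beside 7.49%. Their median rank was 10254.5. The bound genes were eff and Ubc6, which encode ubiquitin-conjugating enzymes, at ranks 316 and 582, and Ube3a, a ubiquitin ligase gene, at rank 1242. The polyubiquitin gene Ubi-p63E was the strongest unbound one, at rank 2407.

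Other multisubunit complexes of general function gave mixed counts. The COP9 signalosome, a relative of the lid, had a candidate at 4 of 9 genes, or 44.4%, beside 45.0% of all protein-coding genes. It had 0 bound genes, with CSN5 the strongest at rank 4116. The translation initiation factor eIF3, also related to the lid, had a candidate at 6 of 13 genes, or 46.2%. Bound were 2 of the 13, or 15.4%, beside 7.49%, namely eIF3a at rank 355 and eIF3h at rank 414. The strongest unbound gene was eIF3c, at rank 2815. The chaperonin CCT had a candidate at 5 of 8 genes, or 62.5%. It had 0 bound genes, with CCT6 the strongest at rank 5422. With 7.49% of all protein-coding genes bound, a count of 0 in lists as short as those of the COP9 signalosome and CCT is near the background. The 2 bound genes of eIF3 come from a list of only 13. Nothing is read from these counts.

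**Figure D4:**
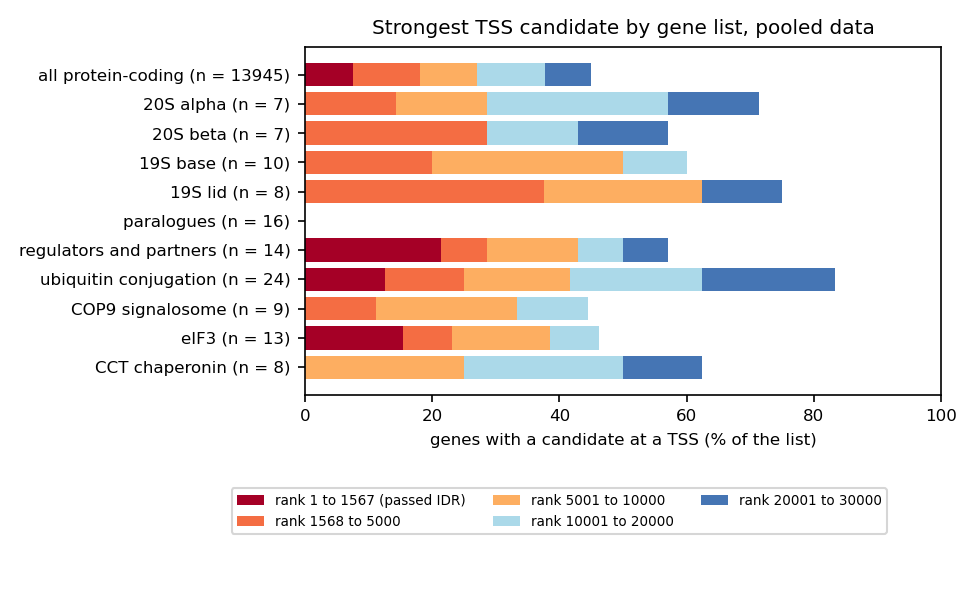
Genes with a pooled candidate, by interval of rank, in percent of all genes of each list. The subunit genes are split into alpha, beta, base and lid genes and paralogues, beside the other lists and all protein-coding genes. Of all protein-coding genes, 7.49% are among the 1567 strongest regions. The shares in the text are instead of the genes with a candidate. On that basis the subunit genes have 0 of 21 among the 1567 strongest regions and 38.1% from there to rank 5000. The protein-coding genes with a candidate have 16.7% and 23.5%.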

How the data were processed

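The samples were replicates 2 and 4 of 1 group, and they enter no comparison between groups. The 4 region lists were made by the authors in dm6 coordinates, per the text deposited with the files, with 1 control alignment in common. Aligner, caller, software versions and the threshold of reproducibility (IDR) were not given in the sources used here. In the deposited lists the signal value is the caller's enrichment measure, of unstated scale. It was used to rank regions within a list. No read counts are in the lists, so the depth is unknown and no interval was computed.

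From these lists, summits were taken as the deposited start plus the summit offset and printed 1-based. Ensembl release 115 supplied genes and TSSs, and bases were read from RefSeq's copy of dm6. A gene kept its strongest candidate within 500 bp of any TSS, and was bound if that region stood in the reproducible list. Summits of different lists matched within 100 bp. The region matching was tested on simulated data. Python 3.11.15, numpy 2.4.6, pandas 2.3.3 and matplotlib 3.10.9 were used.

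Every member was named, the 12 strongest with full values, and 1 neighbouring gene is not reported here. In other lists the bound genes, at most 4, and the strongest unbound gene were named. Members and lists were chosen with earlier results of these data known. The DRE core, the opposite-strand neighbours and the split of members by candidate were added after values were seen. Synonyms matched Ufd1-like, Huwe1 and CSN2. Neither ECM29 nor Uchl5 matched as a separate gene. Values are described beside the same values over all protein-coding genes, without tests. Alternatives were other distances, regions covering a TSS, the outermost TSS, the nearest gene, each replicate alone, members without paralogues and a longer list of bound regions.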

Additional observations from a re-analysis of the deposited data

How the results depend on the processing

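The count of bound subunit genes was 0 in every alternative run except a longer list. Most settings can only keep or drop regions of the main run, so their 0 was fixed in advance. Besides the longer list, only summits within 1000 bp and each replicate alone could have raised the count. The bound share of all protein-coding genes was then 8.97%, and 7.24% and 7.29% in replicates 2 and 4. With the 3134 strongest regions called bound, 3 of 48 were bound, namely Rpt5, Prosbeta1 and Rpn2, beside 13.0% of all protein-coding genes. The share with a candidate moved to 58.3% with summits within 1000 bp of a TSS, beside 53.5% of all protein-coding genes. It moved to 31.2% when the region had to cover a TSS, beside 31.4%, and to 31.2% when a region counted for its nearest gene only, beside 38.5%. It was 65.6% without the paralogues. With 1 replicate left out, the number of genes with a candidate ran from 19 to 24, their share from 39.6% to 50%, the count of bound genes from 0 to 0, the median rank from 6498 to 9397 and the strongest rank from 1698 to 2033. A candidate in any of the 3 lists, an alternative added after the data were seen, was present at 28 of 48 genes, beside 8032 of 13945 protein-coding genes.

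Ranks of single genes say little here, since the settings on distance and TSS keep a gene's strongest region or drop it, and leaving out a replicate gives the other replicate's own rank. Prosbeta2 lost its candidate at 250 bp, with covered TSSs and with the nearest gene only. Prosbeta1 and Rpt4 lost theirs with the nearest gene only, Rpn9 with covered TSSs and Prosalpha7 without replicate 2. With the nearest gene only, the rank of Rpn9 was 9700, that of its second candidate. Its summit of rank 4193 lay nearer to the TSS of another gene and was counted there. No paired analysis was possible because the series has a single group. With 2 replicates and unknown depth, the absence of a candidate does not show the absence of Ash1.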

Other observations

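The case of Rpn6, a lid gene with candidates in both replicates but none in the pooled list, was rare. Of 2053 regions that stood among the 5000 strongest of both replicates, with summits within 100 bp of each other, 4 had no pooled candidate within 500 bp. Besides the region at Rpn6, which is shared with the gene ave, they lay at Sf3b6 and Tnpo, at RpS27A and Ip259, and at no TSS on 3R. RpS27A encodes a fusion of ubiquitin with a ribosomal protein. Its region stood at rank 1250 in replicate 2 and at rank 269 in replicate 4, which would place it among the strongest regions of either, and it is not in the pooled list. The cause was not tested.

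Among all protein-coding genes with a candidate, the share with a DRE in the promoter was 12.7% in the bound interval of rank and 15.7% in the interval from there to rank 5000. It was 13.2% and 12.5% in the following intervals and 9.38% in the last 10000 ranks. Over all protein-coding genes with a candidate the share was 12.9%, so the intervals differ little from it. The counts include the subunit genes themselves, and no difference between intervals was tested.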
